A study of Mus musculus with 8 samples.

Results

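Interferon-induced antiviral genes were described in donor T cells from the spleen of mice after allogeneic hematopoietic cell transplantation (HCT). The genes were 50 antiviral effectors and sensors chosen by name, with no IRF, STAT, GBP, Ifi200 or MHC gene among them. They were all found among the 25078 gene rows of the deposited tables, and each passed the filter on low counts that left 12428 genes for testing. By GENCODE M21, 49 of them were protein coding, and Mx2 was annotated as a polymorphic pseudogene.

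The donors were C57BL/6 mice, either wild type (WT) or Stat3 fl/fl CD4-Cre (STAT3KO), in which a Cre recombinase under Cd4 control removes a floxed part of Stat3 from developing T cells of both the CD4 and the CD8 lineage. All recipients were lethally irradiated BALB/c mice that also received T cell-depleted bone marrow from WT donors. On day 6 after HCT, H-2Kb+ TCRβ+ donor cells were sorted into CD4 and CD8 T cells and their RNA was sequenced. The 8 libraries formed 4 groups of 2 replicates, each genotype having CD4 and CD8 libraries, and each library combined cells of 3 recipients. With 2 libraries a group, p-values measured only the spread between these pools. No donor T cells from mice without HCT and no T cells of an untreated mouse were analysed here, so every level is one of transplanted cells on day 6.

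The libraries held between 20171396 and 23282757 counts. Levels were given as CPM on TMM-adjusted library sizes, and 3 counts, the most that a zero count leaves room for, came to between 0.129 and 0.149 CPM. Such limits cover counting error only. Stat3, the targeted gene, was at 436 and 428 CPM (WT) against 138 and 141 CPM (STAT3KO) in CD4 T cells and at 431 and 436 against 120 and 143 CPM in CD8 T cells, a 3.09-fold fall in CD4 and a 3.3-fold fall in CD8 T cells (edgeR quasi-likelihood test, adjusted p = 0.000753 and 0.00536). The remaining Stat3 RNA was not read by exon, because the files hold counts per gene. Cd4 and Cd8a marked the sorted groups, with Cd4 at 1360.5 CPM or more in the CD4 libraries and at 8.16 CPM or less in the CD8 libraries, and Cd8a at 819 CPM or more in the CD8 libraries and at 16 CPM or less in the CD4 libraries.

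Interferons signal through receptor-bound JAK kinases. Type I interferons act on genes that carry the interferon-stimulated response element (ISRE), and interferon gamma on genes that carry the gamma-activated site (GAS). The genes switched on in this way sense viral RNA, stop its translation, degrade it, modify proteins with ISG15 or ADP-ribose, and attack pathogen-containing vacuoles, and T cells responding to alloantigen make interferon gamma themselves.

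In CD4 T cells, loss of STAT3 went with higher levels across most of these genes. The summed CPM of the 50 genes was 5698.2 and 6043.3 in the WT and 7343.1 and 8378.2 in the STAT3KO libraries, a ratio of means of 1.34. A gene was called at a Benjamini-Hochberg adjusted p under 0.05 in the edgeR quasi-likelihood test over all genes tested. By that rule 23 of the 50 rose and 0 fell, where 6.54% of all genes tested rose and 5.08% fell. The median log2 fold change (STAT3KO against WT) of the 50 was 0.54, against 0.017 over all genes tested, 45 of the 50 were above 0 (52.1% of all genes), and 5 called genes at least doubled. Both STAT3KO libraries lay above both WT libraries for 40 of the 50, where 28.5% of all genes did so and 25.0% lay below, as 0 of the 50 did. At an unadjusted p under 0.05 there were 35 of the 50, against 27.5% of all genes. In RNA from sorted pools, a larger share of cells with a transcript and more of it per cell cannot be told apart.

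In CD8 T cells, from a lower starting level, the direction was alike and fewer genes were called by the same rule. With DESeq2 instead, 29 were called higher in CD8 and 28 in CD4 T cells. The sum was 3709.5 and 3808.3 CPM in the WT and 5406.1 and 5188.7 CPM in the STAT3KO libraries, a ratio of means of 1.41. Of the 50, 13 rose and 0 fell, where 1.34% of all genes tested rose and 0.732% fell. The median log2 fold change was 0.58, against -0.007 over all genes, 45 of the 50 were above 0 (49.1% of all genes), and 37 did not overlap in the upward direction (24.9% of all genes). At an unadjusted p under 0.05 there were again 35, against 19.3% of all genes. Ly6a was the 1 gene of the 50 whose STAT3KO CD8 libraries both lay below the WT libraries (24.8% of all genes).

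Between the comparisons, 10 genes were called higher in CD4 and in CD8 T cells, 13 in CD4 and not in CD8, 3 in CD8 and not in CD4 (Ifi27l2a, Usp18 and Slfn1), and 24 in neither. The fold change was positive in both for 43 genes, negative in both for Isg20, Ifitm3 and Ly6a, and of opposite sign for the other 4. It was larger in CD4 for 25 genes and larger in CD8 for 25.

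**Figure D1:**
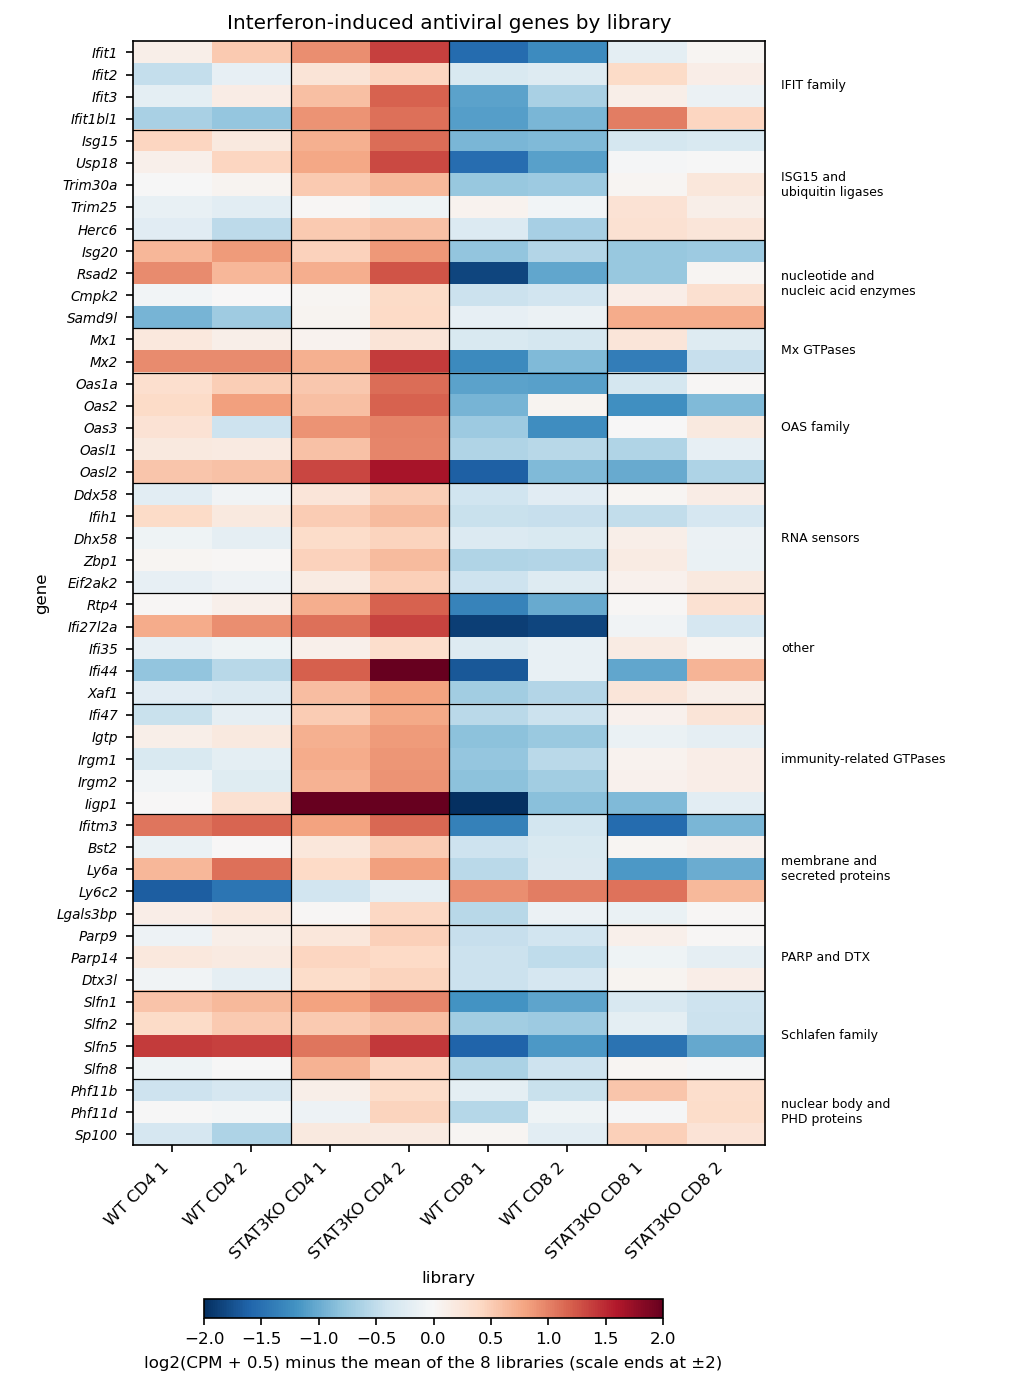
Level of each of the 50 genes (rows, grouped by role) in each of the 8 libraries (columns, replicate number last), as log2(CPM + 0.5) minus the gene's mean over the 8 libraries, with the colour scale ending at 2 in either direction. Most rows are redder in the STAT3KO than in the WT columns of the same T cell type, and most are bluest in the WT CD8 columns. Ly6c2 and Samd9l are among those that run the other way between CD4 and CD8.

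These counts rested on few libraries. In CD4 T cells, 10, 7, 12 and 9 genes were called without STAT3KO CD4 replicate 1, STAT3KO CD4 replicate 2, WT CD4 replicate 1 and WT CD4 replicate 2, and in CD8 T cells 0, 2, 1 and 0 without STAT3KO CD8 replicate 1, STAT3KO CD8 replicate 2, WT CD8 replicate 1 and WT CD8 replicate 2, and 8 without either STAT3KO CD4 library. Each of these fits leaves a group with 1 library, assumed to vary like the others. The 7 genes called in CD4 T cells under every alternative tried were Ifit1bl1, Ifi47, Xaf1, Samd9l, Irgm1, Irgm2 and Ly6c2, no call in CD8 T cells held under every one, and no called gene changed sign.

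Transcripts of other cells were measured beside these counts, as CPM by library total. The 4 NK cell markers summed to between 67.5 and 83.4 in WT CD4 and between 142 and 154 in STAT3KO CD4 T cells, with 2 of them (Eomes and Klrd1, which activated T cells also express) called higher, and to between 209 and 244 in WT CD8 and between 280 and 359 in STAT3KO CD8 T cells with none called. The defining NK marker Ncr1 was at 0.246 CPM or less in every library. The 12 macrophage and monocyte markers summed to 26.3 and 103 (WT) against 30.6 and 136 (STAT3KO) in CD4 and to 45.2 and 196 against 62.2 and 168 in CD8 T cells, high in replicate 2 of every group rather than in one genotype, and 0 of 12 were called in either comparison. The 6 B cell markers summed to between 106 and 123 in WT CD4 and between 149 and 171 in STAT3KO CD4 T cells, with Cd79b called higher (at 2.46 CPM or less) and Pax5 lower. The 7 plasmacytoid dendritic cell markers, which include Bst2, summed to between 279 and 324 in WT CD4 and between 332 and 340 in STAT3KO CD4 T cells. Ccr9 was called higher in CD4 T cells, and Siglech had 0 counts in all libraries. The CD8 sums were 294 and 303 (WT) against 240 and 290 (STAT3KO), with none called. Runx2 made up most of these sums, at between 204 and 259 CPM in the CD4 libraries. The 8 T cell markers summed to between 5117.2 and 6744.8 over the libraries, with Thy1 called higher in CD4 T cells, and the 6 neutrophil and 5 erythroid markers to 15.1 and 5.38 at the most, with 0 called. The part of such cells in the results below was not tested.

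The IFIT proteins bind viral RNA and hold back its translation. All 4 IFIT genes tested rose in CD4 and 2 rose in CD8 T cells, and they lie side by side on chromosome 19 (chr19:34550694-34650009 on mm10, 99.3 kb). Ifit1bl1, an Ifit1-like gene, was at 14.6 and 13.4 CPM in WT CD4 and at 43.5 and 50.5 CPM in STAT3KO CD4 T cells. In CD8 T cells it was at 10.5 and 12 CPM in the WT and at 47.5 and 31.3 CPM in the STAT3KO libraries. No STAT3KO library of either type came near a WT library, and the log2 fold change was 1.75 ± 0.2 (SE) in CD4 (3.36-fold, adjusted p = 0.00269) and 1.81 ± 0.21 in CD8 T cells (3.5-fold, adjusted p = 0.014). Ifit1 was at 23 and 30.7 CPM (WT) against 40.9 and 55.6 CPM (STAT3KO) in CD4 and at 6.96 and 8.59 against 18.5 and 21.8 CPM in CD8 T cells. The genotypes did not overlap in either type, with log2 fold changes of 0.84 ± 0.21 in CD4 (adjusted p = 0.0374) and 1.37 ± 0.22 in CD8 (adjusted p = 0.0292). Ifit3 rose from 18.5 and 23.6 to 32.7 and 49.2 CPM in CD4 T cells (log2 fold change 0.96 ± 0.24, adjusted p = 0.0404), and its CD8 values of 9.86 and 13.4 against 23.1 and 19.6 CPM did not overlap but gave an adjusted p of 0.111. Ifit2 rose in CD4 (log2 fold change 0.66, adjusted p = 0.0247) and gave an adjusted p of 0.091 in CD8 T cells. Members of this family, like the Oas, Phf11, Slfn and Ly6 genes, have close paralogs, so reads that match several of them could be lost or miscounted. The starts of Ifit1bl1, Ifit1 and Ifit3 are shown because these genes carry large changes and hold matches to the ISRE core, GAAA, any 2 bases and GAAA again, searched on both strands and shown in capitals (as TTTC pairs where the match is on the other strand). The stretches come from RefSeq promoter windows of GRCm38.p6, which run from 250 bases before to 50 bases after a gene start, and are written 5′ to 3′ on the gene's strand, at chr19:34602043-34602092 (minus), chr19:34640765-34640833 (plus) and chr19:34583353-34583436 (plus).
Ifit1bl1: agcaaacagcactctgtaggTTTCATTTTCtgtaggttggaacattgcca
Ifit1: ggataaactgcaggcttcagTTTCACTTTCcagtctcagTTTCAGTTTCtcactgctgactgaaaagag
Ifit3: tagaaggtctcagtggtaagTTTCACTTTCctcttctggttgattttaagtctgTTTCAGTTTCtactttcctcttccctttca

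Immunity-related GTPases are induced by interferon and act on the membranes of vacuoles that hold intracellular pathogens, and Irgm1 also takes part in autophagy. All 5 tested (Ifi47, Igtp, Irgm1, Irgm2 and Iigp1) rose in CD4 and 3 (Igtp, Irgm1 and Irgm2) rose in CD8 T cells. Irgm1 was at 94.6 and 102 CPM (WT) against 195 and 215 CPM (STAT3KO) in CD4 and at 67.8 and 80.6 against 122 and 128 CPM in CD8 T cells. Its genotypes were well apart in both types, with log2 fold changes of 1.06 ± 0.12 (adjusted p = 0.00217) and 0.75 ± 0.12 (adjusted p = 0.0272). Irgm2 was at 52.1 and 45.6 against 87.2 and 101 CPM in CD4 (log2 fold change 0.95 ± 0.12, adjusted p = 0.00364) and at 30.3 and 32.9 against 57.2 and 59 CPM in CD8 T cells (0.88 ± 0.12, adjusted p = 0.0217). Igtp rose by a log2 fold change of 0.63 and 0.64. Iigp1 had the largest called change in CD4 T cells, from 28 and 34.8 CPM to 113 and 158 CPM (log2 fold change 2.11 ± 0.54, 4.32-fold, adjusted p = 0.0452). Its CD8 libraries differed within a genotype, at 3.41 and 15.5 CPM in the WT and 15 and 24 CPM in the STAT3KO libraries, which overlapped (log2 fold change 1.05 ± 0.57, adjusted p = 0.369). That value was 0.33 with the first WT CD8 replicate left out and 2.51 with the second left out, uncalled in either case. The CD4 call of Iigp1 was lost without any one of the 4 STAT3KO or the 2 WT CD4 libraries, with adjusted p values up to 0.185. By GENCODE M21, Igtp and Irgm2 share 162 exon bases on the same strand and Ifi47 shares 111 with Olfr56. In the coordinates of the deposited counts, Igtp (chr11:58199556-58207592) and Irgm2 (chr11:58214977-58222783) do not overlap. Reads shared by Ifi47 and Olfr56 could be miscounted, which was not tested. The starts of Irgm1 (chr11:48871421-48871470, minus), Igtp (chr11:58199502-58199551, plus) and Irgm2 (chr11:58214893-58214942, plus) are shown because these 3 genes rose in both T cell types. The Igtp and Irgm2 stretches are identical at 48 of 50 bases, and the capitals again mark ISRE-core matches, of which the 2 in Irgm1 overlap.
Irgm1: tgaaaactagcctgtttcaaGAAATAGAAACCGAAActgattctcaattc
Igtp: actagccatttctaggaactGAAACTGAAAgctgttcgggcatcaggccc
Irgm2: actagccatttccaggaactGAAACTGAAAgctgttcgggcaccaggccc

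**Figure D2:**
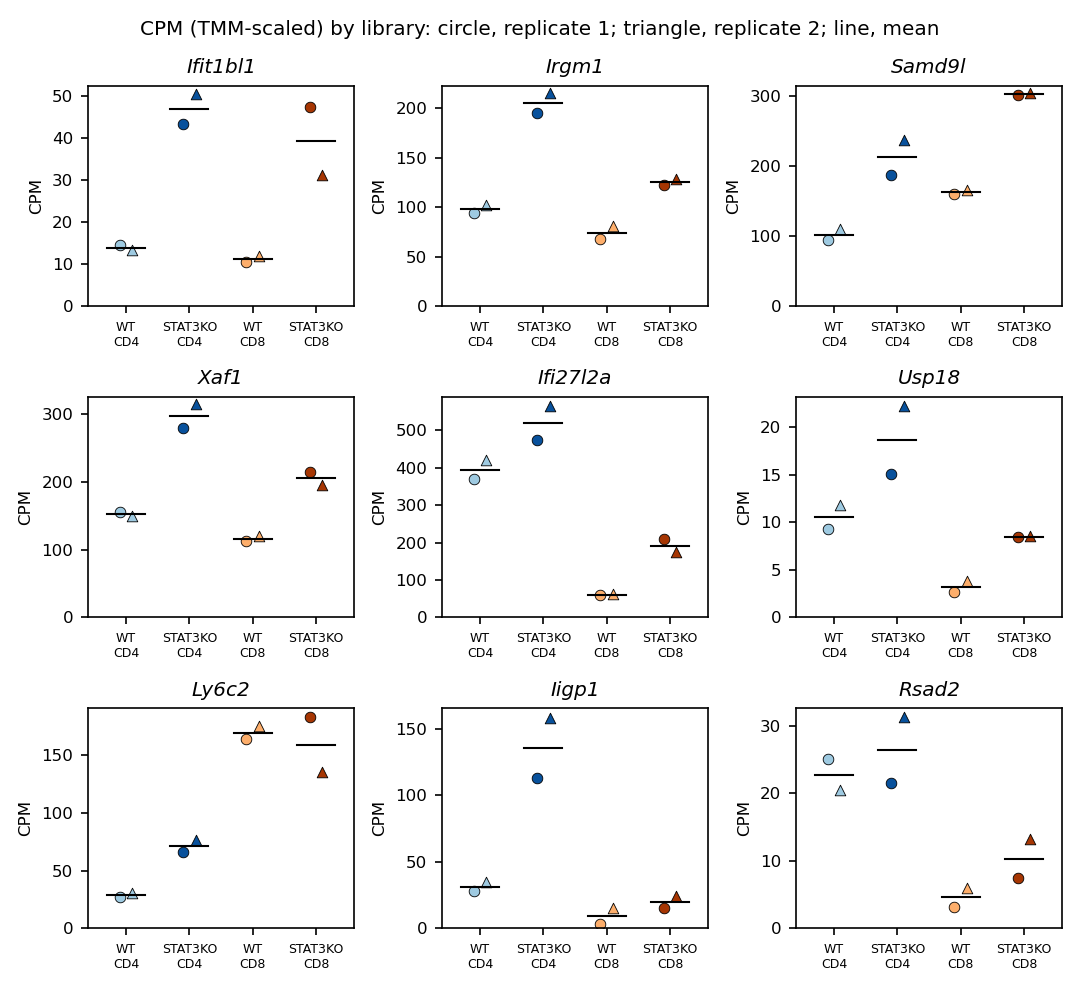
CPM after TMM scaling of 9 genes in each library, on linear axes that start at 0 and differ between panels, with replicate 1 as a circle, replicate 2 as a triangle and the mean of both as a line. The STAT3KO libraries lie above the WT libraries of the same T cell type for Ifit1bl1, Irgm1, Samd9l, Xaf1, Ifi27l2a and Usp18, for Ly6c2 in CD4 T cells alone, and the 2 replicates of Iigp1 and Rsad2 are spread widely.

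ISG15 is a ubiquitin-like protein that is joined to other proteins by ligases such as HERC6 and removed by USP18, which also dampens the type I interferon receptor. Of Isg15 and the 4 enzymes listed with it, 2 rose in CD4 (Trim30a and Herc6) and 2 in CD8 T cells (Trim30a and Usp18). Trim30a, a ubiquitin ligase of the TRIM family, was at 232 and 242 CPM (WT) against 336 and 368 CPM (STAT3KO) in CD4 and at 139 and 142 against 240 and 275 CPM in CD8 T cells. The log2 fold change was 0.57 ± 0.11 in CD4 (adjusted p = 0.0177) and 0.87 ± 0.11 in CD8 (adjusted p = 0.018), with no overlap of the genotypes. Usp18 was at 9.28 and 11.8 CPM (WT) against 15.1 and 22.2 CPM (STAT3KO) in CD4 and at 2.68 and 3.79 against 8.44 and 8.53 CPM in CD8 T cells. Again no libraries overlapped, and the log2 fold change of 1.39 ± 0.26 in CD8 (2.62-fold, adjusted p = 0.0452) was called while 0.82 ± 0.24 in CD4 was not (adjusted p = 0.0693). Isg15 itself was at 15.4 and 13 against 18.9 and 25.3 CPM in CD4 and at 5.79 and 5.9 against 8.73 and 9.11 CPM in CD8 T cells, above the WT in all STAT3KO libraries, with adjusted p values of 0.0537 and 0.128. Herc6 had a log2 fold change of 0.94 in CD4 (adjusted p = 0.01) and 0.74 in CD8 T cells (adjusted p = 0.0633), and Trim25, a ligase that acts on the RNA sensor RIG-I, had 0.15 and 0.19 (adjusted p = 0.42 and 0.385). Isg15 (chr4:156200855-156200916, minus) is shown because it held the most overlapping ISRE-core matches of the windows printed, 3, and Trim30a (chr7:104465200-104465249, minus) because it rose in both T cell types.
Isg15: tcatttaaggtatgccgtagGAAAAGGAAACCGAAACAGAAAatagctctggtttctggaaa
Trim30a: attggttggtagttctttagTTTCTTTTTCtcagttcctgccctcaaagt

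Samd9l, Rsad2, Cmpk2 and Isg20 act on nucleotides, nucleic acids or translation. Samd9l, which restrains translation and cell growth, was at 94.3 and 110 CPM (WT) against 188 and 237 CPM (STAT3KO) in CD4 and at 161 and 166 against 301 and 304 CPM in CD8 T cells. It doubled in CD4 (log2 fold change 1.05 ± 0.14, 2.07-fold, adjusted p = 0.00404) and rose by 0.89 ± 0.14 in CD8 T cells (adjusted p = 0.0274). Rsad2 (viperin), which makes a chain-terminating nucleotide, was at 25 and 20.5 against 21.5 and 31.2 CPM in CD4 T cells, where the genotypes overlapped. Its CD8 values were 3.2 and 5.98 against 7.38 and 13.2 CPM, without overlap and not called (log2 fold change 1.16 ± 0.37, adjusted p = 0.147). Its neighbour on chromosome 12, the nucleotide kinase gene Cmpk2, had log2 fold changes of 0.25 and 0.64 (adjusted p = 0.326 and 0.0709). The exonuclease gene Isg20 had -0.09 and -0.07. The start of Rsad2 (chr12:26456543-26456592, minus) holds an ISRE-core match and is shown as that of a gene with no call in either comparison.
Rsad2: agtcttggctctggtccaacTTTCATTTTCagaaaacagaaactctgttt

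RIG-I (Ddx58), LGP2 (Dhx58) and the nucleic acid sensor gene Zbp1 rose in CD4 T cells, with log2 fold changes of 0.51, 0.55 and 0.52 (adjusted p = 0.0365, 0.0226 and 0.0317). MDA5 (Ifih1) had 0.28 (adjusted p = 0.141) and the RNA-activated kinase PKR (Eif2ak2) 0.46 (adjusted p = 0.0654), although both STAT3KO libraries were above both WT libraries for all 5. Among CD8 T cells 0 of 5 were called, with log2 fold changes between 0.05 (Ifih1) and 0.61 (Zbp1, adjusted p = 0.0505), and 4 of the 5 had an unadjusted p under 0.05.

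Of the OAS and OAS-like genes, a family named for enzymes that make the short nucleotide chains that switch on RNase L, 1 of 5 rose in CD4 T cells. Oas3 was at 75.8 and 46.2 CPM in the WT and at 116 and 124 CPM in the STAT3KO libraries (log2 fold change 0.97 ± 0.25, adjusted p = 0.0434), the WT libraries being further apart than the STAT3KO ones. Oasl2 was close behind, at 12.6 and 12.8 against 22.1 and 27.4 CPM (0.96 ± 0.26, adjusted p = 0.057). None of the 5 was called in CD8 T cells, with 37.1 and 25.8 against 61.9 and 70.9 CPM for Oas3 (adjusted p = 0.0755) and with overlapping values for Oas2, at 1.99 and 4.42 against 1.54 and 2.07 CPM (log2 fold change -0.82, adjusted p = 0.347). The Mx GTPase genes were called in neither comparison: Mx1 had log2 fold changes of -0.0 and 0.35, and Mx2, at 9.55 CPM or less, 0.17 and 0.29.

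Schlafen proteins restrain T cell growth and cut tRNA or block viral replication. Slfn8 rose in CD4 (log2 fold change 0.63, adjusted p = 0.0271) and Slfn1 in CD8 T cells (0.75, adjusted p = 0.0256). Slfn1 was at 249 and 263 against 294 and 332 CPM in CD4 T cells (0.29, adjusted p = 0.135) and at 73.1 and 81.1 against 134 and 126 CPM in CD8 T cells. Slfn2, needed to keep T cells quiescent, had 0.11 and 0.41 (adjusted p = 0.593 and 0.11), and Slfn5 -0.13 and 0.12. Slfn5 shares 559 exon bases with Slfn5os on the other strand. Its start (chr11:82951927-82951976, plus) is shown because it holds an ISRE-core match while the gene's level differed between CD4 and CD8 T cells and not by call between genotypes.
Slfn5: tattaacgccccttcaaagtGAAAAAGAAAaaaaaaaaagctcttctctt

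Of the other genes, Xaf1, which promotes apoptosis, was at 155 and 150 against 279 and 315 CPM in CD4 (log2 fold change 0.96 ± 0.11, adjusted p = 0.00254) and at 112 and 120 against 214 and 196 CPM in CD8 T cells (0.82 ± 0.11, adjusted p = 0.0194). Rtp4, a chaperone for receptors that also limits interferon responses, was at 35.4 and 37.5 against 58 and 79 CPM in CD4 (0.91 ± 0.18, adjusted p = 0.02) and at 13.4 and 17 against 35.2 and 42.9 CPM in CD8 T cells (1.36 ± 0.19, adjusted p = 0.0226). Both genes were higher in every STAT3KO library than in any WT library of the same type. Ifi27l2a, a small protein of mitochondrial and nuclear membranes, was at 369 and 421 against 473 and 564 CPM in CD4 T cells (0.39 ± 0.14, adjusted p = 0.122). Its CD8 values were 59.3 and 61.7 against 210 and 174 CPM (1.67 ± 0.15, 3.17-fold, adjusted p = 0.00847), the smallest adjusted p among the 50 genes in that comparison. Ifi44 had the largest fitted change in CD4 T cells and was not called: at 20 and 27 counts in the WT and 109 and 279 counts in the STAT3KO libraries, its log2 fold change was 2.99 ± 0.9 (adjusted p = 0.0736). The nuclear body gene Sp100 rose in CD4 T cells (0.65, adjusted p = 0.0259), and Phf11b, a regulator with a PHD finger, rose in both (0.62 and 0.76, adjusted p = 0.0257 and 0.0375). Phf11d was at 13 counts or less in every library. Dtx3l rose in CD4 T cells (0.53, adjusted p = 0.0167). Parp9, its partner in an ADP-ribosylating and ubiquitin ligase complex, and Parp14 were called in neither comparison. As a caution, Parp9 and Dtx3l share 458 exon bases on opposite strands, and strand use in the counting was not stated.

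Among the membrane and secreted proteins, 1 of 5 was called in CD4 and 0 of 5 in CD8 T cells. Ly6c2, which encodes the Ly6C surface protein of activated and memory CD8 T cells, was at 27.3 and 30.9 CPM in WT CD4 and at 66.3 and 76.2 CPM in STAT3KO CD4 T cells (log2 fold change 1.29 ± 0.16, 2.45-fold, adjusted p = 0.0036). In CD8 T cells, where it was far higher, the genotypes overlapped at 164 and 175 against 183 and 135 CPM (-0.09 ± 0.16, adjusted p = 0.818). Its neighbour Ly6a, the gene of Sca-1, was at 592 and 800 against 493 and 661 CPM in CD4 and at 258 and 305 against 168 and 189 CPM in CD8 T cells (-0.66 ± 0.2, adjusted p = 0.128). Ifitm3, which blocks virus entry from endosomes, had -0.13 and -0.44, tetherin (Bst2) 0.44 and 0.43, and Lgals3bp 0.05 and 0.27, none of them called.

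**Figure D3:**
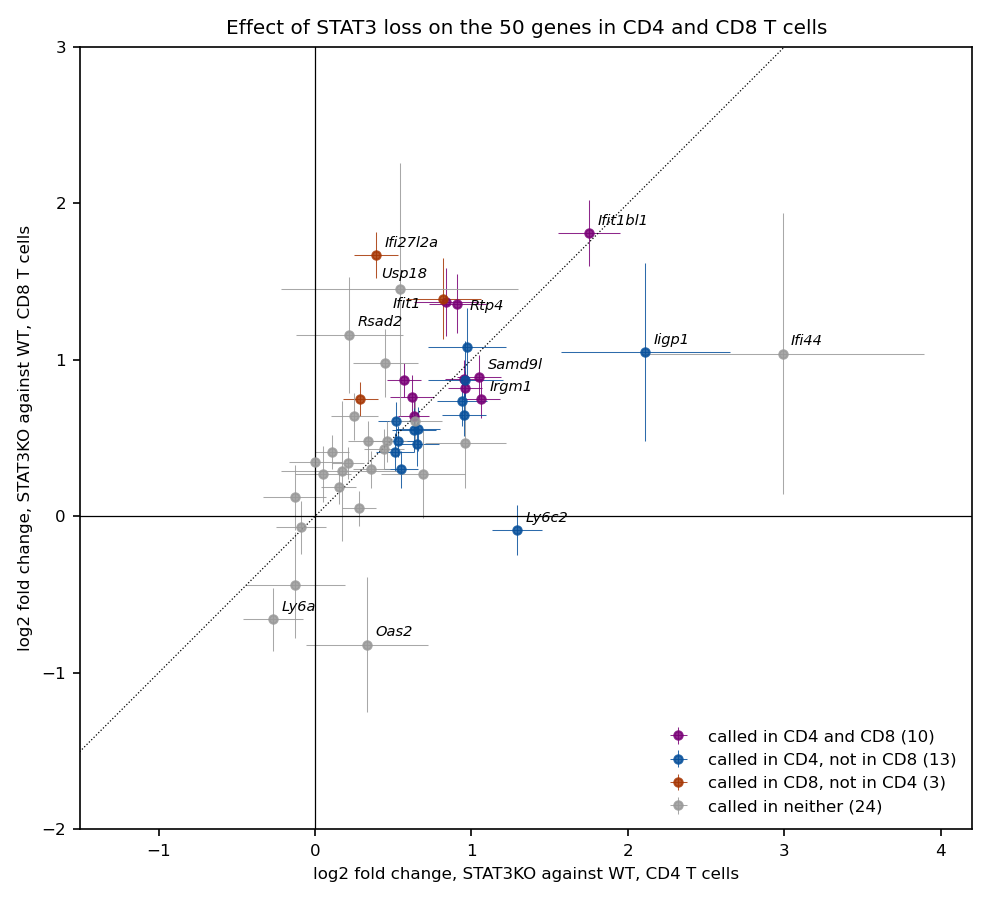
Log2 fold change of STAT3KO against WT in CD4 (horizontal) and in CD8 T cells (vertical) for the 50 genes, with bars for the SE, the dotted line marking equal changes and colours the calls at an adjusted p under 0.05. Most points lie above 0 on both axes, Ifi27l2a lies above the line at 0.39 and 1.67, and Ly6c2 below it at 1.29 and -0.09.

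Whether the effect of STAT3 loss differed between the T cell types was tested as an interaction. By the edgeR quasi-likelihood test 0 of the 50 and 0 of all genes were called (0.0%), while 3 of the 50 and 982 of all genes (7.9%) had an unadjusted p under 0.05. The difference was above 0 for 25 of the 50, against 47.1% of all genes. The 3 were Ifi27l2a, with a log2 difference (CD8 minus CD4 effect) of 1.27 ± 0.2 (adjusted p = 0.122), Ly6c2 with -1.38 ± 0.22 (adjusted p = 0.122) and Slfn1 with 0.46 ± 0.16 (adjusted p = 0.474). DESeq2 called 188 genes, Ifi27l2a and Ly6c2 among them (adjusted p = 2.15e-06 and 2.7e-05), the edgeR likelihood-ratio test 137 with the same pair, limma 13 with none of the 50, and a fit with the replicate number as a block 403 with Ifi27l2a and Ly6c2 (adjusted p = 0.00475 and 0.00676), and over all alternatives their adjusted p ran up to 0.487 and 0.517. Slfn1 was called under none of the alternatives. In the edgeR quasi-likelihood fit with the filter and without a block, genes called in one T cell type alone thus cannot be said to differ between them. For Ifi27l2a and Ly6c2 the outcome depended on the fit. The quasi-likelihood test called both with the replicate block, and also with no filter on low counts (adjusted p = 0.0244 and 0.0237).

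Among WT donor cells, CD8 T cells held less of most of these transcripts than CD4 T cells. Of the 50, 27 were lower and 2 higher in CD8 T cells, where 11.6% of all genes tested were lower and 12.2% higher, and the median log2 fold change (CD8 against CD4) was -0.65, against 0.001 over all genes. It was above 0 for 6 genes (50.1% of all genes), and the groups did not overlap for 40 lower (30.0% of all genes) and 4 higher (29.2%). At an unadjusted p under 0.05 there were 38 (36.1%). Slfn5 was at 205 and 201 CPM in WT CD4 and at 25.3 and 34.8 CPM in WT CD8 T cells (log2 fold change -2.75 ± 0.22, 6.75-fold lower, adjusted p = 0.000204). Ifi27l2a, given above per library, was 6.52-fold lower (-2.71 ± 0.15, adjusted p = 9.17e-05), and Mx2, at 6.84 and 6.8 against 1.08 and 1.56 CPM, was 5.15-fold lower (-2.36 ± 0.43, adjusted p = 0.0065). All 4 Schlafen genes were lower. The exceptions were Ly6c2, 5.82-fold higher in CD8 T cells (2.54 ± 0.17, adjusted p = 0.000125), and Samd9l, 1.6-fold higher (0.68 ± 0.14, adjusted p = 0.0105), the latter lost without WT CD4 replicate 1 or WT CD8 replicate 1 (adjusted p = 0.0632 and 0.0522), which left 1 gene called higher.

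Among STAT3KO donor cells, 28 of the 50 were lower and 2 higher in CD8 T cells, where 6.67% of all genes were lower and 5.84% higher. The median log2 fold change was -0.64 (all genes 0.002). It was above 0 for 6 genes (50.2% of all genes), the groups did not overlap for 37 lower (28.7%) and 4 higher (29.6%), and 36 had an unadjusted p under 0.05 (27.5%). Iigp1, at 113 and 158 CPM in the CD4 and 15 and 24 CPM in the CD8 libraries, was 6.93-fold lower (-2.79 ± 0.56, adjusted p = 0.018, and between 0.0604 and 0.126 without any one STAT3KO library), Slfn5 5.67-fold lower (-2.5 ± 0.21, adjusted p = 0.000824) and Oasl2, at 22.1 and 27.4 against 3.95 and 5.32 CPM, 5.32-fold lower (-2.41 ± 0.28, adjusted p = 0.00241). Ly6c2 was 2.23-fold higher (1.16 ± 0.16, adjusted p = 0.00424), and Samd9l 1.42-fold higher at an adjusted p of 0.0496. The number lower fell to 11 without STAT3KO CD4 replicate 2 or STAT3KO CD8 replicate 1 and to 15 without STAT3KO CD8 replicate 2, and the number higher to 1 without any library except WT CD4 replicate 2. These comparisons share their libraries with those of the genotypes, so they are not independent of them.

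Between genes, levels were compared per exon length as RPKM. Ly6a, Slfn2 and Ifi27l2a led, at means over the 4 WT libraries of 487, 335 and 258 RPKM, and Ifi44 and Phf11d came last at 0.385 and 0.0814 RPKM. The order differed by T cell type. Ly6c2 was ranked 20 in WT CD4 and 3 in WT CD8 T cells, Slfn1 4 and 13, and Slfn5 21 and 36. Between genotypes, Iigp1 went from rank 38 to 22 and Ifit1bl1 from 43 to 31 in CD4 T cells, and Ifit1bl1 from 38 to 25 in CD8 T cells. With 2 libraries a group, neighbouring ranks were not told apart, as for Slfn2 (438 and 491 RPKM) and Ifi27l2a (415 and 480 RPKM) in WT CD4 T cells.

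**Figure D4:**
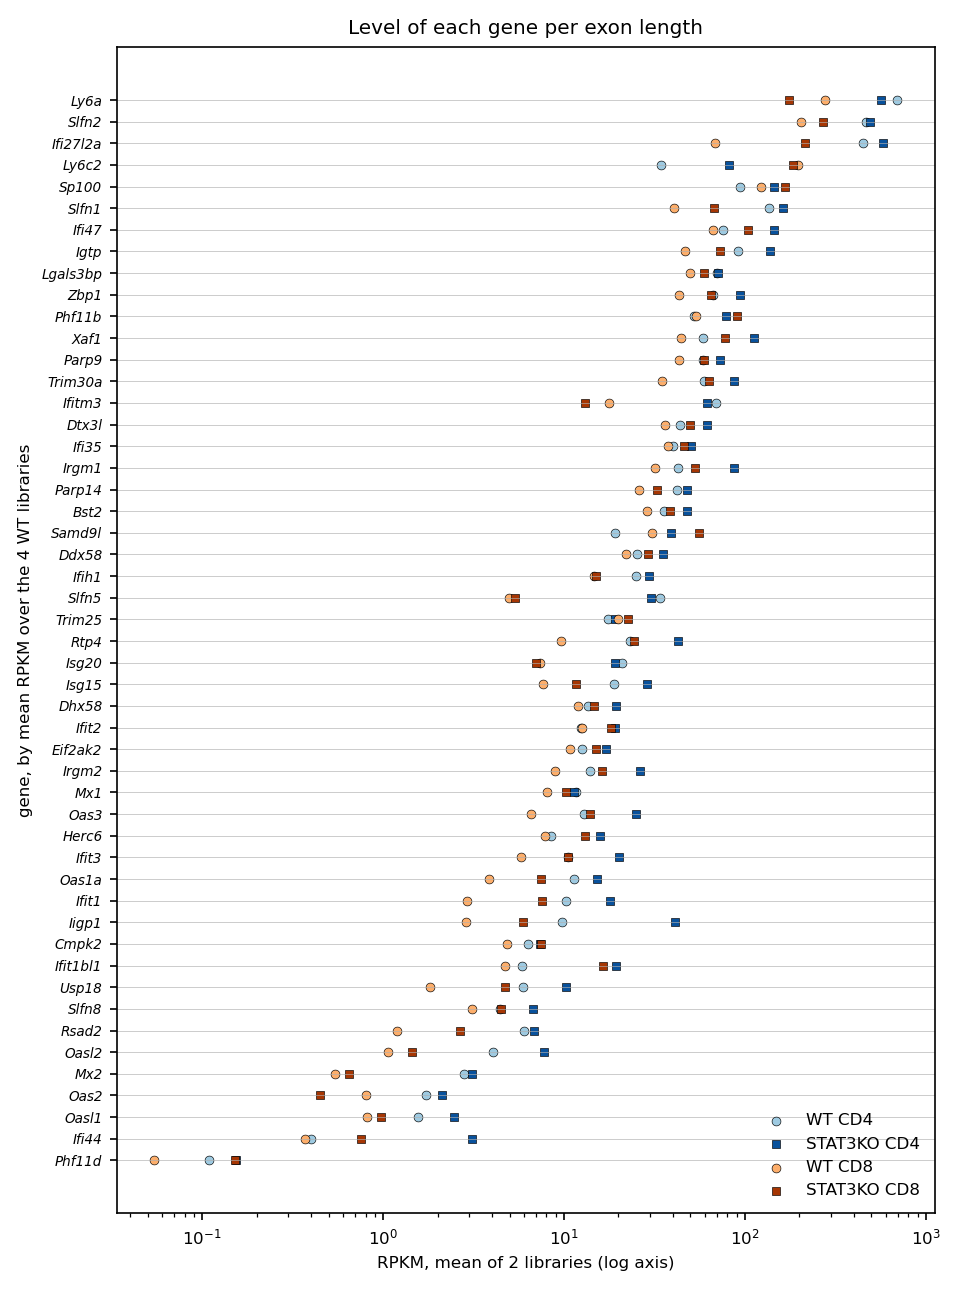
Mean RPKM of 2 libraries in each group (log axis) for the 50 genes, ordered by the mean over the 4 WT libraries. Circles are WT and squares STAT3KO, and the span runs from Ly6a at 696 RPKM in WT CD4 T cells to Phf11d at 0.0543 RPKM in WT CD8 T cells.

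Genes upstream of these targets were read from a list of interferon pathway genes. Of 9 ligands, Ifng was the 1 tested, at 374 and 235 against 411 and 270 CPM in CD4 and at 656 and 490 against 520 and 381 CPM in CD8 T cells, where the genotypes overlapped (adjusted p = 0.78 and 0.59). The listed type I and type III interferon genes had 0 counts apart from 1 count of Ifna1 in 1 library. Of 5 receptor genes tested, Ifnar2, a chain of the type I receptor, fell in CD4 T cells, from 64 and 81.6 to 39.8 and 38.6 CPM (log2 fold change -0.89 ± 0.16, adjusted p = 0.0133), and had 0.04 in CD8 T cells. Ifnar1, Ifngr1 and Ifngr2 were not called. Ifngr2, at a low level, was at 3.84 and 6.76 against 1.5 and 1.6 CPM in CD4 T cells, without overlap (-1.77 ± 0.62, adjusted p = 0.115). Its CD8 values overlapped (-0.36 ± 0.63, adjusted p = 0.823). Among kinase and transcription factor genes, Irf9 rose in CD4 T cells (0.6, adjusted p = 0.0234) and had 0.5 in CD8 T cells (adjusted p = 0.0931), and Irf7, Irf1, Stat2, Jak1, Jak2 and Tyk2 were not called in either. Among the inhibitors of cytokine signalling, Socs3, a known STAT3 target, fell in CD4 from 369 and 367 to 98.6 and 136 CPM (-1.65 ± 0.23, adjusted p = 0.00474) and in CD8 T cells from 163 and 206 to 56 and 82.4 CPM (-1.41 ± 0.23, adjusted p = 0.0292). Socs1, which inhibits interferon gamma signalling, fell in CD4 T cells, from 44 and 39.1 to 20.3 and 25 CPM (-0.87 ± 0.21, adjusted p = 0.0347), and had -0.49 in CD8 T cells (adjusted p = 0.264). Of 6 inhibitor genes, 2 fell and 0 rose in CD4 T cells, where 5.08% of all genes tested fell and 6.54% rose. In CD8 T cells 1 fell and 1, Usp18, rose, where 0.732% of all genes tested fell and 1.34% rose. Usp18 was also counted above among the interferon-induced genes. None of the 5 adaptor genes of the RNA and DNA sensors that were tested (Mavs, Tmem173, Cgas, Tbk1 and Irf3) was called.

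Position and promoter sequence were described next. They are not independent of the choice of genes, which were taken by name as interferon-induced and include families that lie side by side. The 50 genes lay on 16 chromosomes, and 28 of them fell into 11 clusters in which starts were within 500 kb of the next. Such clusters were not counted over all genes. Within clusters the genes did not all change alike. Besides the IFIT cluster, the Schlafen genes (chr11:82952102-83122670) had log2 fold changes between -0.13 and 0.63 in CD4 and between 0.12 and 0.75 in CD8 T cells, Oas1a, Oas2 and Oas3 (chr5:120730333-120907525) between 0.33 and 0.97 and between -0.82 and 1.08, and the pair Ly6a and Ly6c2 (chr15:74994877-75111971) -0.27 and 1.29 in CD4 T cells.

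RefSeq promoter windows were matched for 38 of the 50 genes. Of those, 19 held the ISRE core on either strand, against 3.99% of all 27025 genes with a window, and 9 (23.7%) held the GAS letters (TTC, any 3 bases, GAA), against 9.55%. Counted by window, 22 of 46 (47.8%) held the ISRE core, against 3.44% of 32851. Of 30 ISRE-core matches, 24 lay before the gene start, 23 of them within 150 bases, with overlapping matches counted singly. The shares are descriptive, since the genes had been chosen as interferon-induced. For the 19 genes with the ISRE core the median log2 fold change was 0.62 (CD4, 11 called) and 0.75 (CD8, 7 called), and for the 19 without it 0.65 (8 called) and 0.48 (3 called). Their difference was not tested. No window was matched for Usp18, Mx1, Mx2, Oas2, Dhx58, Zbp1, Rtp4, Ifi27l2a, Parp9, Parp14, Iigp1 and Ly6a.

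**Figure D5:**
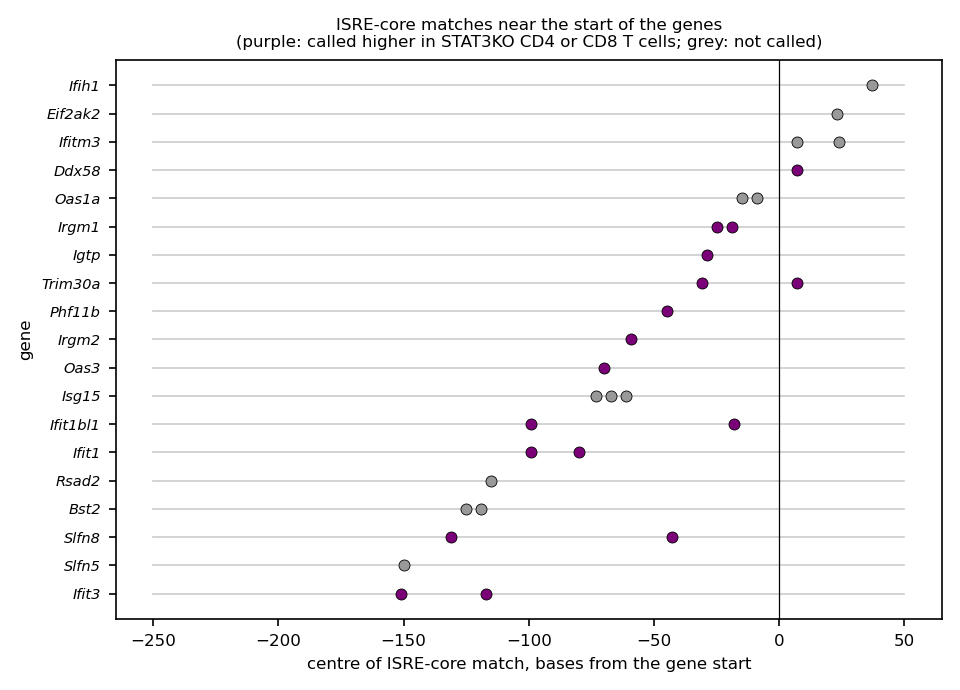
Centre of each ISRE-core match, in bases from the gene start (0, with minus before it), for the 19 genes that hold one, with the grey line giving the window, which runs from 250 bases before to 50 after. Windows of other starts of the same gene are drawn on one line, purple marks genes called higher in either STAT3KO comparison, and most matches lie between the start and 150 bases before it.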

How the data were processed

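RNA of 8 spleen donor T cell libraries was sequenced by the authors as single-end reads, aligned to mm10 with STAR and counted per RefSeq gene with HTSeq. The deposited counts are raw reads per gene, and the deposited RPKM values are those counts scaled by exon length and library size, with a library size between 0.9895 and 1.05 times the column total. Some label fields name other cells (an adipogenic line) and a different kit from the methods, and were set aside. Whether counting used strand is not given in the sources used here.

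Groups were taken from the labels. Genes were kept by filterByExpr (minimum count 10), scaled by TMM (factors 0.982 to 1.033) and fitted with a mean per group over all 8 libraries in edgeR 4.0.16 (R 4.3.3), with the quasi-likelihood test and Benjamini-Hochberg adjustment over 12428 genes, two-sided. The SE is the log2 fold change divided by the square root of the quasi-likelihood F. The 50 genes, the pathway and marker lists and the groups by role were chosen with earlier results of these data known. All 50 could be named. The rule gave full statistics to the 8 called genes with the largest absolute log2 fold change in each STAT3KO comparison, to any called gene that fell, and to the 3 highest and 3 lowest called genes of CD8 against CD4, and other genes were added by role. The fits were tested on simulated counts. Alternatives used DESeq2 1.42.0, limma 3.58.1 on log2(RPKM + 1), other scaling and filters, fewer libraries and a replicate block. Coordinates are on mm10. Promoter windows, credited to RefSeq, are on GRCm38.p6, the same build. Alternatives for Stat3, for single genes of CD8 against CD4 and for 3 interactions were added after the data were seen. One gene of the pathway list is not reported here.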

Additional observations from a re-analysis of the deposited data

How the results depend on the processing

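The cause of the changes below was not tested, beyond the smaller number of libraries in the fits that leave some out. In CD4 T cells, the number of the 50 called higher was 28 with DESeq2, 29 with the edgeR likelihood-ratio test and 25 with limma or with no filter. Of the 50 genes, 23 called higher in STAT3KO CD4 T cells became 14 with only the 4 libraries compared and between 7 and 24 with 1 library left out. In CD8 T cells, 13 became 29 with DESeq2 (which also called 1 lower, Ly6a), 25 with the edgeR likelihood-ratio test, 2 with only the 4 libraries, and between 0 and 13 with 1 library left out. The CD8 median was 0.46 by limma on log2(RPKM + 1) and between 0.48 and 0.63 with 1 library left out. Over all genes, leaving out 1 library gave between 412 and 1307 calls in CD4 and between 7 and 224 in CD8 T cells, where DESeq2 gave 885, the likelihood-ratio test 815, no filter 454 and the 4 libraries 37. The interaction called 1 of the 50 higher (Ifi27l2a) and 1 lower (Ly6c2) with DESeq2 (188 of all genes), the likelihood-ratio test (137) and no filter (44), and limma called 13 of all genes and 0 of the 50. CD8 against CD4 gave over all genes 1919 calls in WT with the 4 libraries, between 1546 and 2598 with 1 library left out, and in STAT3KO mice between 457 and 1554. With 1 library left out, between 1 and 2 of the 50 were higher in each genotype and between 11 and 28 lower in STAT3KO mice, where column totals or the 4 libraries also gave 1 higher. Stat3 was called under every alternative.

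Replicate numbers are shared by all groups, and the library numbers in the titles fall into 2 runs that follow them, but the labels do not say what a number marks, so samples were not taken as paired. Deviations of same-numbered libraries correlated between 0.424 and 0.671 across genes for the 6 pairs of groups. With a replicate block, 36 of the 50 were higher and 1 lower (Ly6a) in CD4, 33 higher and 2 lower (Ly6a and Oas2) in CD8 T cells, the interaction called 1 higher and 1 lower, and calls over all genes were 3747 (CD4), 2258 (CD8), 403 (interaction), 5232 (CD8 against CD4, WT) and 3689 (STAT3KO). These were the largest counts over all genes among the alternatives. Under the block, Iigp1 in CD8 T cells was called (log2 fold change 1.13, adjusted p = 0.0346) and Mx1 in CD4 T cells had a log2 fold change of 0.0.

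The sign turned for uncalled genes when 1 library was left out. In CD4 T cells the log2 fold change ran from -0.32 to 0.07 (Isg20), -0.08 to 0.43 (Rsad2), -0.1 to 0.06 (Mx1), -0.25 to 0.46 (Mx2), -0.02 to 0.58 (Oas2), -0.32 to 0.01 (Ifitm3), -0.31 to 0.01 (Slfn5), -0.22 to 0.99 (Phf11d) and -0.16 to 0.21 (Lgals3bp). In CD8 T cells it ran from -0.18 to 0.03 (Isg20), -0.46 to 0.77 (Mx2), -0.03 to 0.5 (Oasl1), -0.05 to 0.12 (Ifih1), -0.49 to 2.85 (Ifi44), -0.87 to 0.16 (Ifitm3), -0.14 to 0.36 (Slfn5) and -0.33 to 0.1 (Ly6c2). Under other scalings the median of all genes lay between -0.049 and 0.005. At between 1 and 13 counts, Phf11d was too shallow for a difference to be detectable.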
